A study of Mus musculus with 4 samples.

Results

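Fc gamma receptors bind the constant part of immunoglobulin G and were followed here through 6 genes in the 2 lymph nodes that drain the pancreas of NOD mice, which are inbred and become diabetic without treatment through autoimmunity. The genes were Fcgr1, Fcgr3 and Fcgr4, which encode activating receptors, Fcer1g, which encodes their shared signalling subunit, Fcgr2b, which encodes the inhibitory receptor, and Fcgrt, which encodes the neonatal Fc receptor. They were found by matching each array probe's transcript accession to a symbol, which gave 9 probes for the 6 genes out of 41174 probes, and 6 of the 13401 named genes measured. Each of the 4 mice was a female NOD mouse aged 12 weeks without any treatment named in the labels. From each mouse the gastric lymph node (the left pancreatic node) was labelled with red Cy5 and the pancreatico-duodenal lymph node (the right pancreatic node) with green Cy3, and both were hybridised to 1 two-colour Agilent array. The nodes were whole, so that fewer cells of a type and less RNA per cell cannot be told apart. Red always marked the gastric node, so dye and node cannot be told apart either.

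Fc gamma receptors decide how a cell answers an immune complex. The activating receptors pair with the FcR gamma chain, whose tyrosine-based activation motif recruits the kinase Syk after Src family kinases such as Lyn have phosphorylated it. Fcgr2b carries an inhibitory motif in its own tail and recruits the lipid phosphatase SHIP. It is the only Fc gamma receptor of mouse B cells, is displayed by follicular dendritic cells, and is found together with the activating receptors on macrophages and dendritic cells. The neonatal receptor is built like an MHC class I molecule with beta-2-microglobulin and does not signal in this way; it returns immunoglobulin G and albumin from endosomes to the blood, mainly in endothelium and macrophages.

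The promoters of the activating receptors and of the inhibitory receptor are shown because the myeloid and B cell factor PU.1 binds a known core, the PU box GAGGAA. The letters were searched on both strands in the 250 bases before each gene's start, in RefSeq sequence of the build GRCm38.p6, which comes from C57BL/6J and not from NOD mice. Capitals mark the PU box, which reads TTCCTC here because each match lay on the opposite strand.
Fcgr1 (chr3:96293970-96294219, minus strand): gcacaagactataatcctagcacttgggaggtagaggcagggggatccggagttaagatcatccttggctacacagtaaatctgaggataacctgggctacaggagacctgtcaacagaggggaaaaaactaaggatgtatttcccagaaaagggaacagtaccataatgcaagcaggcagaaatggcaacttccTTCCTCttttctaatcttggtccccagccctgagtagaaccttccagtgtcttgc
Fcgr3 (chr1:171059395-171059644, minus strand): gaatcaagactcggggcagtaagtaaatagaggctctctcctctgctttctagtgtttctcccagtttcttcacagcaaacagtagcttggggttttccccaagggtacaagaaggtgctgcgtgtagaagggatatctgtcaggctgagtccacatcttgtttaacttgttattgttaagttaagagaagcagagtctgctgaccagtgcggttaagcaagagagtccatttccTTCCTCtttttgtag
Fcgr4 (chr1:171018676-171018925, plus strand): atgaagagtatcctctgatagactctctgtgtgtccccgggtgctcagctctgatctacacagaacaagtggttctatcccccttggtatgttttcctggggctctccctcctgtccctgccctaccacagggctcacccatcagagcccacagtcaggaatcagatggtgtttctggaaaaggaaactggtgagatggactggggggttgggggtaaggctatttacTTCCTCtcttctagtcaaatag
Fcgr2b (chr1:170976072-170976321, minus strand): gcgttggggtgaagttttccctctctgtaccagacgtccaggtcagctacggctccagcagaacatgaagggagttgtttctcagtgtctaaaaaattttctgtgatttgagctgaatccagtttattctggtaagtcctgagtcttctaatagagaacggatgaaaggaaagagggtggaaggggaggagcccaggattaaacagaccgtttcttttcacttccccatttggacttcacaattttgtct

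Each of the 3 activating receptor promoters held 1 PU box. It began 55 bases before the start of Fcgr1, 22 before that of Fcgr4 and 15 before that of Fcgr3 (6 before another listed start of Fcgr3). No PU box was found in the windows of Fcgr2b, Fcer1g or Fcgrt. The same letters were present in 23.3% of all 32851 promoter windows searched. Fcgr1 is a gene known to be induced by interferon gamma, and its window also held the letters TTCCCAGAA, a match to the STAT-binding GAS element TTCNNNGAA, beginning 109 bases before the start. That element was present in 7.0% of all windows and in none of the other members. The motifs were chosen after the sequences had been seen, and a match is a run of letters and not a measured site.

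Every one of the 9 probes was well above background in both channels on 4 of 4 arrays. Values below are log2 ratios of gastric over pancreatico-duodenal node and are negative where the gastric node had the lower signal. Over all spots other than controls 67.6% to 71.8% were well above background in the gastric channel and 60.2% to 63.1% in the other. The median log2 ratio of all 21320 features (genes and unnamed transcripts) was 0.03. Markers of lymph node cells were present, with 12 of 12 B cell and 12 of 12 T cell genes measured. The mice differed in markers of surrounding tissue. In mouse 3 the 13 exocrine pancreas genes had a median of -4.78, against values from -0.18 to 0.88 in the other mice, and the 8 adipocyte genes had medians of 1.70, -1.76, 0.43 and -1.58 in mice 1 to 4. The part of such tissue in the members' values was not tested.

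The 6 genes did not move as a block. Fcgr3 and Fcgrt were lower in the gastric node, by 1.26-fold and 1.76-fold, and passed the test (limma, Benjamini-Hochberg adjusted p = 0.0292 and 0.0254). Fcgr1, Fcer1g and Fcgr4 did not pass, and neither did Fcgr2b, whose mean lay on the other side of 0. Thus 2 of 6 genes were called lower and 0 of 6 higher, where 7.54% of all features were called, 4.45% lower and 3.09% higher. By sign alone, 4 of 6 genes were below 0 in 4 of 4 mice, as were 17% of all features (Fcgr3 and Fcer1g turn positive with median centring), and 1 of 6 was above 0 in 4 of 4 mice, as were 24.1%. The replicates were separate mice, and the threshold was an adjusted p under 0.05.

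**Figure D1:**
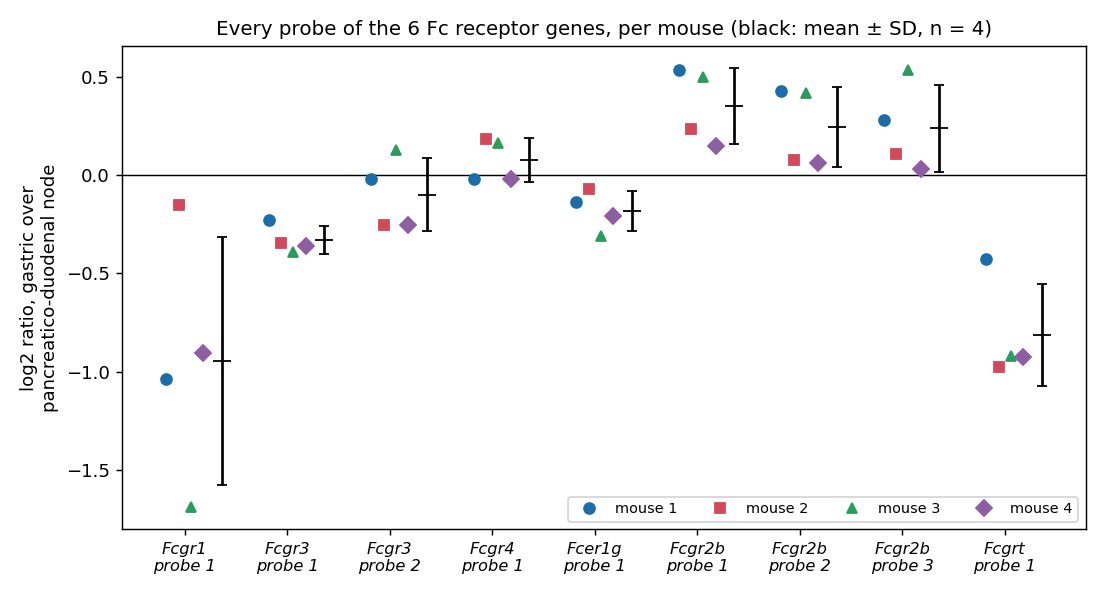
Log2 ratio of gastric over pancreatico-duodenal node (y axis) for each of the 9 probes (x axis, the brightest probe of a gene as probe 1), with 1 point per mouse and the mean and SD over 4 mice in black. The 3 Fcgr2b probes lie above 0 in every mouse, Fcgr1 spreads from -1.69 to -0.15, and the Fcgr3 probes differ from each other.

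Fcgr1 encodes CD64, the high-affinity receptor of macrophages and monocytes that binds single immunoglobulin G molecules. Its log2 ratio was -1.04, -0.15, -1.69 and -0.91 in mice 1 to 4, below 0 in each of them. The mean was -0.95 ± 0.63 (SD, n = 4), a 1.93-fold lower level in the gastric node, and it did not pass (limma adjusted p = 0.0642). Its SD over mice was the widest of the 6 genes. The mean was -0.54 with median centring and -0.70 without mouse 3. The levels spread more on the gastric side: the normalized log2 intensity of the probe was 8.47, 9.44, 7.22 and 8.21 in the gastric nodes and 9.51, 9.59, 8.91 and 9.11 in the pancreatico-duodenal nodes. The SD over mice was 0.91 in the gastric and 0.32 in the pancreatico-duodenal node, and the 2 sets of values overlapped through mouse 2. This was not particular to Fcgr1. The brightest probe of every member had the larger SD in the gastric node, such as 0.42 against 0.26 for Fcgrt. The dimmer Fcgr3 probe did not (0.21 against 0.25). The gastric node was always red, so dye and node cannot be told apart here.

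Fcgr3 encodes CD16, a low-affinity receptor for immune complexes on macrophages, neutrophils, mast cells and natural killer cells. The brightest of its 2 probes read -0.23, -0.35, -0.39 and -0.36 in mice 1 to 4, a mean of -0.33 ± 0.07 (SD, n = 4). It had the smallest spread of the 6 genes. The levels followed the mouse or its array, at 10.64, 10.65, 10.10 and 10.24 in the gastric and 10.87, 10.99, 10.49 and 10.60 in the pancreatico-duodenal nodes, so the groups overlapped while each pair ran the same way. Each mouse had its own array and arrays were not scaled to each other. In all levels given here mouse and array therefore cannot be told apart. The dimmer Fcgr3 probe read -0.02, -0.25, 0.13 and -0.25, a mean of -0.10 ± 0.19, and did not pass when every probe was tested as its own feature (limma adjusted p = 0.425 over 27603 probes, of which 7.92% were called). The 2 probes therefore disagreed for this gene. With the mean of both probes the value was -0.22 and the call was lost (limma adjusted p = 0.0625), and when arrays were centred on their median without loess the brightest probe read 0.19 and was called higher in the gastric node (limma adjusted p = 0.0138), although it lay at -0.13 relative to the median of all features in that setting.

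Fcgr4 encodes a receptor of monocytes, macrophages and neutrophils for the IgG2 subclasses. Its only probe read -0.02, 0.18, 0.16 and -0.02 in mice 1 to 4, with a mean of 0.08 ± 0.11 (SD, n = 4; limma adjusted p = 0.390). Both signs occurred. It was the dimmest member, with a mean log2 intensity of 7.09, where the offset of 50 added to every signal pulls ratios towards 0.

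Fcer1g, the gene of the FcR gamma chain that Fcgr1, Fcgr3 and Fcgr4 need for surface expression and signalling, read -0.14, -0.07, -0.31 and -0.21 in mice 1 to 4. Its mean was -0.18 ± 0.10 (SD, n = 4), below 0 in each mouse, and it did not pass (limma adjusted p = 0.0936). Mouse 3 had the lowest ratio for Fcgr1, Fcer1g and the brightest Fcgr3 probe, but the highest for the dimmer Fcgr3 probe. With median centring Fcer1g read 0.39 and was called higher in the gastric node (limma adjusted p = 0.00134), 0.06 above the median of all features in that setting.

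Fcgr2b was the member with the most measurements, since its brightest probe was printed in 10 spots on each array and 2 more probes matched the gene. The brightest probe read 0.53, 0.23, 0.50 and 0.15 in mice 1 to 4, above 0 in each, with a mean of 0.35 ± 0.19 (SD, n = 4). It missed the threshold (limma adjusted p = 0.0563). It passed with arrays scaled to a common spread, at 0.34 (limma adjusted p = 0.0423), and with median centring, at 0.88 (limma adjusted p = 0.000272). With median centring it lay 0.55 above the median of all features, and 12821 of 21320 features were called higher. The further probes read 0.43, 0.08, 0.42 and 0.06, and 0.28, 0.10, 0.53 and 0.03, with means of 0.25 ± 0.20 and 0.24 ± 0.22. All 3 probes were above 0 in 4 of 4 mice and put mice 1 and 3 above mice 2 and 4, but none passed as a feature of its own (limma adjusted p = 0.0541, 0.118 and 0.143). The dimmest of these 3 probes was matched through another Fcgr2b transcript than the others.

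The repeated spots give the noise between spots of 1 hybridisation, and error in extraction, labelling or the array is shared by them all. Within an array the SD over the 10 spots was 0.03, 0.04, 0.03 and 0.04 in mice 1 to 4, against 0.19 between mice. The lowest spot of mice 1 and 3 was at 0.49 and 0.45 and the highest of mice 2 and 4 at 0.30 and 0.21, so the spots of these pairs of mice did not overlap. In levels, the probe was at 10.89, 10.66, 10.74 and 10.48 in the gastric and 10.36, 10.43, 10.24 and 10.33 in the pancreatico-duodenal nodes. The lowest gastric value exceeded the highest pancreatico-duodenal one. The SD over mice was 0.17 on the gastric and 0.08 on the other side, and the brightest probes of the other members also had the larger SD on the gastric side.

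**Figure D2:**
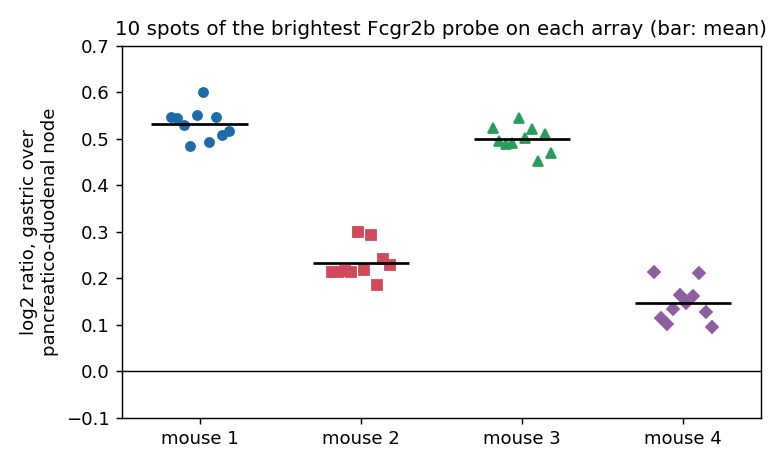
Log2 ratio of gastric over pancreatico-duodenal node (y axis) of the 10 spots of the brightest Fcgr2b probe on the array of each mouse (x axis), with the mean as a bar. The spots of mice 1 and 3 lie above those of mice 2 and 4, and the mouse means run from 0.15 to 0.53.

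Fcgrt, the alpha chain gene of the neonatal receptor, read -0.42, -0.98, -0.92 and -0.93 in mice 1 to 4. The mean was -0.81 ± 0.26 (SD, n = 4), and the 3 mice other than mouse 1 lay close together. The level was 10.90, 10.45, 9.92 and 10.19 in the gastric and 11.33, 11.43, 10.84 and 11.12 in the pancreatico-duodenal nodes, with an overlap only between the gastric node of mouse 1 and the pancreatico-duodenal node of mouse 3. Its partner gene B2m, for beta-2-microglobulin, was at 0.0023 ± 0.19 (limma adjusted p = 0.987). With median centring Fcgrt remained below 0 at -0.28 and passed (limma adjusted p = 0.0299).

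**Figure D3:**
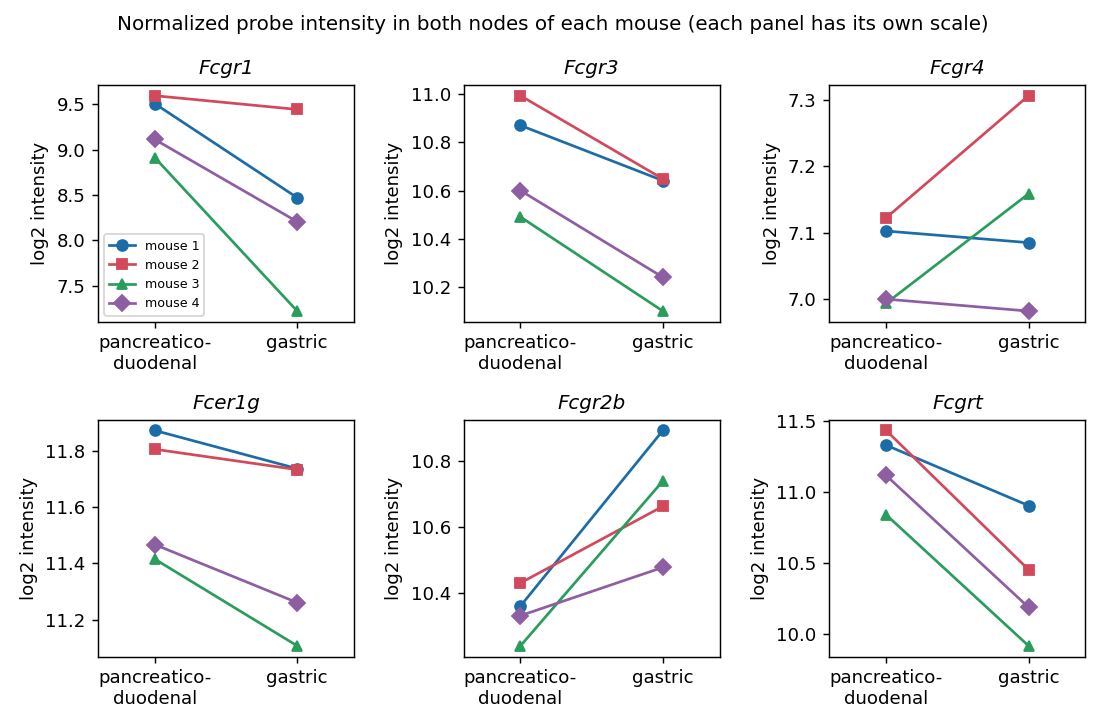
Normalized log2 intensity (y axis) of the brightest probe of each gene in the pancreatico-duodenal and the gastric node (x axis), with the nodes of 1 mouse joined by a line. Each panel has its own scale, and levels of different genes cannot be set against each other. Levels of different mice also carry the brightness of their arrays. Lines fall in 4 of 4 mice for Fcgr1, Fcgr3, Fcer1g and Fcgrt and climb in 4 of 4 for Fcgr2b; the means of Fcgr3 and Fcer1g change sign with median centring.

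The calls of Fcgr3 and Fcgrt rested on all of mice 2, 3 and 4. Without mouse 2, 3 or 4 Fcgr3 had an adjusted p of 0.148, 0.0912 and 0.158 and Fcgrt one of 0.136, 0.0883 and 0.153 (limma), while both passed without mouse 1; the number of features called fell to 0, 3 and 1 in the first 3 cases.

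The balance of activating against inhibitory receptor was read within each array, as the log2 ratio of an activating gene minus that of Fcgr2b. For Fcgr1 this difference was -1.57, -0.38, -2.19 and -1.05 in mice 1 to 4, a mean of -1.30 ± 0.77 (SD, n = 4). For Fcgr3 it was -0.76, -0.58, -0.89 and -0.51, a mean of -0.68 ± 0.17. For Fcer1g it was -0.67, -0.31, -0.81 and -0.35, a mean of -0.53 ± 0.24, and for Fcgr4 -0.55, -0.05, -0.34 and -0.16, a mean of -0.27 ± 0.22. All 4 differences were below 0 in 4 of 4 mice, which means that relative to Fcgr2b each activating gene was lower on the gastric side. The difference was larger in mice 1 and 3 than in mice 2 and 4 for each of the 4 genes. Fcgr2b itself was at 0.53 and 0.50 in mice 1 and 3 and at 0.23 and 0.15 in mice 2 and 4. It is subtracted in every difference, so the 4 genes are not separate observations of this order. Before subtraction Fcgr1 was lower in mice 1 and 3 than in mice 2 and 4, while Fcgr3, Fcer1g and Fcgr4 did not have this order.

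Each of these 4 comparisons gave p = 0.125 in the exact two-sided permutation test, which is the smallest p that 4 mice allow, and 0.125 after Benjamini-Hochberg adjustment over the 4. The comparisons share Fcgr2b and are not independent, and 73% of all other features also lay below Fcgr2b in 4 of 4 mice. A limma fit of every feature minus Fcgr2b called Fcgr3 (adjusted p = 5.31e-05), Fcer1g (adjusted p = 0.00197) and Fcgr1 (adjusted p = 1.70e-16) but not Fcgr4 (adjusted p = 0.0922). That fit gave each of the 4 genes the same SE of 0.15, where their own values over the 4 mice ran from 0.087 (Fcgr3) to 0.38 (Fcgr1). Its p-values therefore do not measure each gene's own spread over mice. The fit called 48.9% of all features below Fcgr2b, so a call in it does not set the receptors apart from other genes. Over the 15 pairs of an activating-side probe with an Fcgr2b probe, means ran from -1.30 to -0.16 and 13 pairs were below 0 in 4 of 4 mice. The exceptions were Fcgr4 against the dimmer Fcgr2b probes, below 0 in 3 mice each. The Fcgr4 difference also ran to -0.71 with median centring. The dimmer Fcgr3 probe, which did not pass on its own, was at -0.45 ± 0.08 against the brightest Fcgr2b probe (SD, n = 4).

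**Figure D4:**
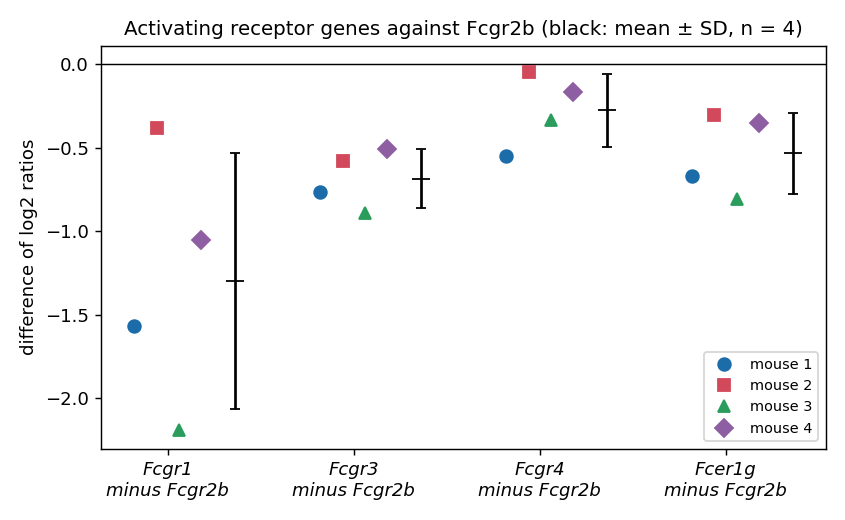
Log2 ratio of each activating gene minus that of Fcgr2b on the same array (y axis), with 1 point per mouse and the mean and SD over 4 mice in black. All 16 points lie below 0, from -2.19 for Fcgr1 in mouse 3 to -0.05 for Fcgr4 in mouse 2.

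Most of the members are neighbours in the genome. Fcgr2b, Fcgr4, Fcgr3 and Fcer1g lie on 1 stretch of chromosome 1, with Fcgr2b, Fcgr4 and Fcgr3 as direct neighbours in the RefSeq gene order. Along this stretch from Fcrlb to Fcer1g, 11 of 14 protein-coding genes were measured, and Fcgr3 was the only one called. The 7 measured genes there that are not Fc gamma receptor genes had a median of 0.01. The neighbour with the largest value among them was Fcrla, a B cell gene of the Fc receptor-like family, at 0.36, 0.14, 0.39 and 0.08 in mice 1 to 4, a mean of 0.24 ± 0.16 (limma adjusted p = 0.0873). Direct neighbours thus had values on both sides of 0. The Fcgr2b and Fcgr3 genes are similar in sequence over their extracellular part, and how far the probes tell them apart was not tested, since probe sequences were not used here.

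The rest of the Fc receptor pathway was read from lists chosen with earlier results of these data known. Their calls, and those of the cell type lists below, stand beside 4.45% of all features called lower and 3.09% called higher. None of 9 measured other Fc receptor genes passed (list median 0.14), among them Fcmr, the IgM receptor gene, at 0.17 and Fcer2a, the low-affinity IgE receptor gene of B cells, at 0.15. In proximal signalling 1 of 26 genes was lower and none higher (list median 0.03). Syk, the kinase that docks on the FcR gamma chain, was at -0.05 ± 0.16 and Lyn at 0.15 ± 0.23, and neither passed.

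Of 11 genes of inhibitory signalling 2 were lower and 1 was higher (list median -0.04). Cd300a, an inhibitory myeloid receptor gene, was at -0.68 ± 0.18, the adaptor gene Dok1 at -0.32 ± 0.12 and the phosphatase gene Ptpn11 at 0.28 ± 0.05 (SD, n = 4). Inpp5d, the gene of SHIP that Fcgr2b recruits, was at -0.04 ± 0.09 and did not pass. Among 23 other receptors and adaptors with activation or inhibition motifs 3 were lower and 2 higher (list median -0.04). Tyrobp, the gene of the DAP12 adaptor and a functional relative of Fcer1g, was at -0.36 ± 0.11 with -0.22, -0.34, -0.47 and -0.39 in mice 1 to 4 (limma adjusted p = 0.0315). Treml4 (-0.81 ± 0.25) and Clec4a2 (-0.48 ± 0.16) were the other lower ones, and Trem2 (0.62 ± 0.32) and the T cell gene Cd3g (0.32 ± 0.14) the higher ones. Of 11 measured effector genes that act with immunoglobulin G, 4 were lower and none higher, namely the complement genes C1qa, C1qb, C1qc and C4b (list median -0.03). These list medians stand beside 0.03 for all features. With median centring, where the median of all features was 0.32, the lists of proximal and inhibitory signalling had 23 of 26 and 9 of 11 genes higher, with medians 0.33 and 0.22 above that of all features. In the same setting 6 of 9 other Fc receptor genes and 14 of 23 other motif-bearing receptors and adaptors were higher, the latter beside 3 lower. Of 11 effector genes 6 were higher and 3 lower. Of all 21320 features 12821 were called higher there and 2066 lower, so most features were higher in that setting.

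Markers of cells that carry these receptors moved in some of the same mice. Of 13 measured macrophage genes 5 were lower and none higher, with list medians of -0.07, -0.37, -0.68 and -0.56 in mice 1 to 4. Adgre1, a surface receptor gene used to mark mouse macrophages, was at -1.36 ± 0.71 and the scavenger receptor gene Cd163 at -1.26 ± 0.30 (SD, n = 4). Timd4, the only measured gene of the list with a mean above 0, was at 0.40 ± 0.37 and above 0 in each mouse, without passing (limma adjusted p = 0.124). Lyz2 was at -0.07 ± 0.16. Mouse 3 had the lowest value for both Fcgr1 and this list, but in mouse 1 Fcgr1 was at -1.04 while the list was near 0. The neutrophil and dendritic cell lists were lowest in mouse 3 as well. Neutrophil genes had 1 of 8 higher and none lower, with medians of -0.06, -0.38, -0.45 and -0.20. Dendritic cell genes had 4 of 12 lower and none higher, with medians of -0.20, -0.20, -0.44 and -0.25. Medians of the monocyte (-0.05), natural killer cell (0.02), T cell (0.14), mast cell (-0.22), exocrine pancreas (-0.96) and adipocyte (-0.14) lists went with 2 of 10 lower, 2 of 10 higher, 2 of 12 higher and no calls in the last 3. With median centring, where 12821 of all 21320 features were called higher, 8 of 10 monocyte and 12 of 12 T cell genes were higher. Without mouse 3 the exocrine and adipocyte medians were 0.34 and -0.50. The part of these cells in the values of Fcgr1 and Fcgr3 was not tested. With median centring the macrophage list had 3 genes lower and 4 higher and the dendritic list 1 lower and 6 higher, with medians of -0.27 and -0.05 relative to all features.

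Endothelial genes, which mark cells rich in the neonatal receptor, were lower for 5 of 12 and higher for none, with list medians of -0.12, -0.49, -0.56 and -0.61 in mice 1 to 4. Stab1, a scavenger receptor gene of sinus endothelium, was at -0.87 ± 0.32 and the receptor gene Tie1 at -0.58 ± 0.07 (SD, n = 4). The list was not uniform. Glycam1, the only measured gene of it with a mean above 0, was at 0.47 ± 0.30 and above 0 in each mouse, without passing (limma adjusted p = 0.0631). Cdh5 was at -0.01 ± 0.21. Mouse 1 had the value nearest to 0 for both this list and Fcgrt. That was not particular to endothelial genes. It also held for the macrophage medians (-0.07, -0.37, -0.68 and -0.56) and the neutrophil medians (-0.06, -0.38, -0.45 and -0.20). None of 12 B cell genes passed, and their list medians of 0.18, -0.03, 0.12 and -0.08 were higher in mice 1 and 3 than in mice 2 and 4, as were the values of Fcgr2b. This order was not particular to B cell genes. The adipocyte medians of 1.70, -1.76, 0.43 and -1.58 shared it, as did those of the other Fc receptor list (0.32, -0.07, 0.22 and -0.005). The follicular dendritic cell list had 1 of 7 lower, Madcam1, and none higher, and its medians of 0.24, 0.06, -0.12 and -0.10 did not follow that order. The part of these cells in the values of Fcgrt and Fcgr2b was not tested. With median centring the endothelial list had 4 genes lower and 3 higher, with a median of -0.41 relative to all features. In that setting 10 of 12 B cell and 5 of 7 follicular dendritic cell genes were higher, as were 12821 of all 21320 features. The B cell and follicular dendritic cell medians were 0.32 and 0.46 above that of all features. Leaving out mouse 3, the animal with the low exocrine genes, ended every call in these lists (0 of 12 endothelial and 0 of 13 macrophage genes by limma, with 3 features called in all and 5732 at an unadjusted p under 0.05), while their medians stayed at -0.45 and -0.36. Such a loss was not particular to mouse 3. Over all features 0 were called without mouse 2, and without mouse 4 0 were higher and 1 was lower.

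**Figure D5:**
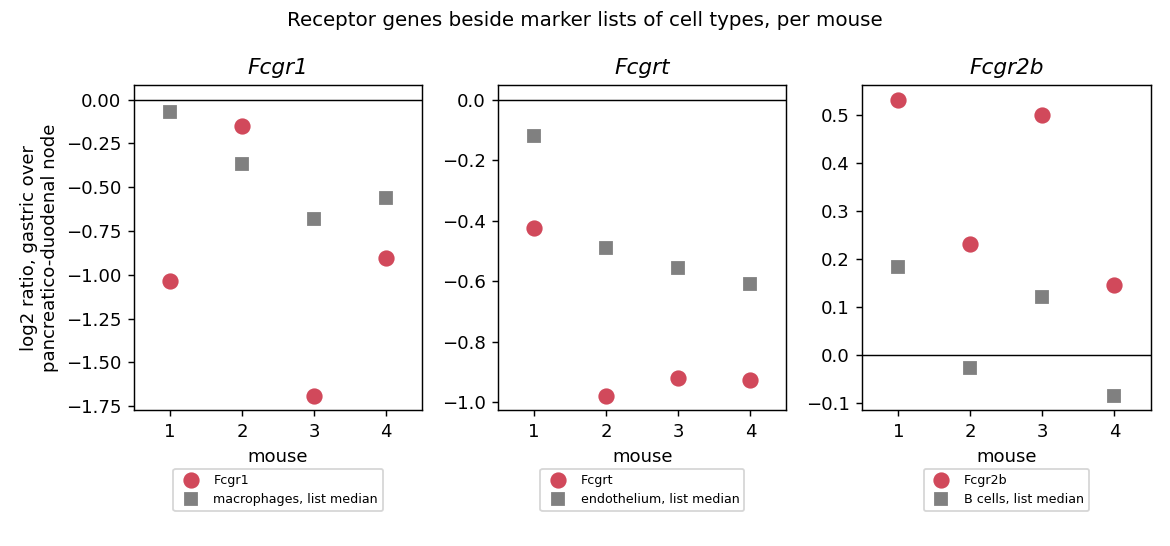
Log2 ratio of gastric over pancreatico-duodenal node (y axis) of Fcgr1, Fcgrt and Fcgr2b in each mouse (x axis, red circles) beside the median of a cell type's marker list (grey squares). A list median lies nearer to 0 than many single genes of the list, so only the order of the mice can be compared. Mouse 1 is nearest to 0 for both Fcgrt and the endothelial list, and also for the macrophage list.

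The named genes whose 4 log2 ratios lay nearest to those of a member were found among 13191 genes by the root mean square difference over the 4 mice. For Fcgrt they included Gpr182 (0.10) and Srpx (0.11), and for Fcgr3 Tubb6 (0.03), Hexa (0.03) and Hoxb3 (0.03). For Fcgr2b they included Tmod3 (0.08) and Bcar3 (0.09). For Fcer1g they were Fgfr3, Tmem63c and Tmem63b (each 0.02), and for Fcgr4 Med29 (0.01), Cherp (0.02) and Trappc9 (0.02). The nearest to Fcgr1 were farther off, with Rspo1 at 0.30, Slc7a8 at 0.36 and Slc22a7 at 0.37. With 4 mice such likeness is a description only.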

How the data were processed

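The deposited scanner files give red and green mean and background intensity for 45018 spots per array. Agilent Feature Extraction 10.2.1.3 wrote them, per the file headers. They also hold the authors' processed intensity and its log10 ratio, which differ from the main values by the software's own background subtraction and dye normalization. The deposited series values of the authors are log2 ratios of processed Cy5 over Cy3, equal to those of the scanner files within 5.11e-05.

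Signals were corrected with normexp (offset 50) and loess in limma 3.58.1 (R 4.3.3). Control and outlier spots had weight 0, and outlier spots were then left out. Of 41174 probes, 27603 were kept, each well above background in 1 channel on 3 or more arrays. Accessions were matched to RefSeq symbols (24844 of all 41174 probes), and the brightest kept probe stood for a gene. Mean log2 ratios were tested against 0 with lmFit and eBayes over 21320 features. Pairing lies in the array itself. No member probe was saturated; precision is limited by having 4 arrays. On simulated intensities for these 21320 features, 67% of log2 changes of 0.5 and 90% of those of 1.0 were called, with 11 of 168 calls false. The simulation changed 100 features by each size and drew noise separately for each feature, without effects shared by a mouse. These shares therefore need not hold for the real arrays.

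Named genes were the members, called list genes with the largest ratios (up to 6, or 2 for cell types) and the 3 nearest in pattern; genes given without a call, and the effector genes, were chosen after their values were seen. Some genes that this rule names are not reported here. Members and lists were chosen with earlier results of these data known. The list values with median centring, with scaled arrays and without mouse 3 were added after seeing the data. Array annotation follows mm9 and the promoters GRCm38.p6.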

Additional observations from a re-analysis of the deposited data

Results flagged for a closer look

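The log2 ratio of Fcgrt in mouse 1, at -0.42, lay far from the other 3 mice, which were between -0.98 and -0.92. Its gap to the nearest of them made up 0.897 of the whole range, above Dixon's critical value for 4 samples. Of 31 sets of 4 values checked in this way 1 stood out, and chance alone flags about 1 in 20. Without mouse 1 the mean was -0.94 and the adjusted p 0.00565 (limma).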

How the results depend on the processing

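Alternatives covered background correction, normalization, the filter, the choice of probe, the variance model, the pairing, the series table and each mouse left out. Those on the filter, the variance model and the pairing, and the one with every probe as a feature, left the members' log2 ratios unchanged. The sign of a member could therefore not change in them. Fcgr1 stayed below 0 without passing in 17 of 17 alternatives, with adjusted p values from 0.0573 to 0.210 (limma), and Fcgr4 above 0 without passing, at 0.04 to 0.17. The 0.17 of Fcgr4 came from median centring and lay at -0.16 relative to the median of all features there. With median centring the median of all features moved from 0.03 to 0.32, calls became 12821 higher and 2066 lower, and Fcgr3 (0.19), Fcer1g (0.39) and Fcgr2b (0.88, or 0.55 above that median) were all called higher, against the main direction for the first pair. With arrays scaled to a common spread, 1071 features were called higher and 1171 lower, and Fcgr2b passed at 0.34 (limma adjusted p = 0.0423). The scanner software's signals gave 473 higher and 569 lower, and the authors' series values 489 and 584. Separate channels with no replicate block, which ignores the pairing, gave 335 and 568, and Fcgr3 lost its call at -0.33 (limma adjusted p = 0.0589). Fcgr3 also lost it at -0.22 with the mean of its probes. Leaving out each mouse in turn gave 0 to 844 higher and 0 to 1323 lower features, -0.37 to -0.31 for Fcgr3 and -0.94 to -0.76 for Fcgrt; with no call, 4343 features had an unadjusted p under 0.05 (limma without mouse 2). Fewer arrays account for part of the loss by construction, and the cause of the other changes was not tested. The differences to Fcgr2b kept the sign of their means in 20 of 20 alternatives. This sign could not change in the alternatives that left the ratios as they were, nor with limma in place of the exact test. The difference of Fcgr4 ran from -0.71 to -0.16. Its exact p was 0.250 with the scanner software's signals, the series values and the mean of probes, where not all mice were below 0. In limma in place of the exact test the differences of Fcgr1 (-1.30), Fcgr3 (-0.68) and Fcer1g (-0.53) passed. That fit gave all of them the same SE, so its p-values do not measure each gene's own spread over mice.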
